A study of Mus musculus with 16 samples.

Results

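The genes described here encode albumin and 9 other abundant carrier proteins of blood plasma: Alb, Ttr, Rbp4, Gc, Ahsg, Fetub, Apoa1, Apoa2, Apoe and Apoh. They were taken by symbol from a list of plasma carriers, drawn up with earlier results of these data known, and they are 10 of the 46078 genes in the count table. Their messenger RNA was measured in whole liver of C57BL/6 mice aged 22 weeks that had diet-induced obesity and hepatic steatosis, in 4 groups of 4 libraries. The saline group received vehicle. A second group was calorie restricted to an equivalent weight loss. The third received Semaglutide, a peptide drug acting on GLP1R, the receptor of glucagon-like peptide-1, and the fourth received Dicretin, a co-agonist of GLP1R and of GCGR, the glucagon receptor. The obesity and steatosis are given for the mice of all 4 groups, so none is a lean control. How much of either remained at collection under weight loss was not examined here. The labels used here give no dose, sex or duration and no rule by which the 4 samples of a group were selected. Libraries are named by group and by the submitters' number.

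Hepatocytes secrete these proteins constantly, and their transcripts are among the most abundant of the liver. Albumin holds water in the blood and carries fatty acids, bilirubin and drugs. Vitamin D binding protein (Gc) belongs to the same family. Transthyretin (Ttr) carries thyroid hormone and holds retinol binding protein 4 (Rbp4) in the circulation, while the fetuins (Ahsg and Fetub) are cystatin-like proteins that bind mineral or inhibit proteases. Apolipoproteins A-I and A-II (Apoa1, Apoa2) form high-density lipoprotein (HDL), apolipoprotein E (Apoe) is the ligand by which remnant lipoproteins are taken up, and apolipoprotein H (Apoh, beta-2-glycoprotein I) binds phospholipids. Transcription of such genes in liver depends on hepatocyte factors of the HNF4, FOXA and C/EBP families, among others.

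In Dicretin livers the transcripts of albumin, fetuin-B and apolipoprotein A-II were lower than in saline livers and that of fetuin-A (Ahsg) was higher. The other 6 did not pass, and 36.7% of all genes tested passed in this comparison. Between Dicretin and Semaglutide, where 32.0% of all genes passed, 5 of the 10 were lower in Dicretin: Alb, Fetub, Apoa1, Apoa2 and Ttr. Between Dicretin and calorie restriction, where 31.3% passed, Alb and Fetub were lower. Some calls were lost in fits that left out 1 library, those of Alb and Apoa2 against saline and of Ttr and Apoa2 against Semaglutide. No member passed in Semaglutide or calorie restriction against saline, or between those groups.

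RefSeq start-site windows (GRCm38.p6) were used for 9 of the 10 genes, 14 windows in all, and the 250 bases before each start were searched. Ttr was left out of this search by choice, so the counts of matches below do not cover it. Upstream sequences are shown for Alb and Gc, family members on the same chromosome of which Alb changed and Gc did not pass, and for Ahsg and Fetub, neighbours that were called in opposite directions. Each is written 5′ to 3′ on the gene's strand and ends 1 base before the start site. These RefSeq starts differ in part from the GENCODE M21 gene positions given below. The Ahsg window and the Fetub window shown lie inside the GENCODE spans, which begin at 22891277 and 22918334. The RefSeq start of Alb, 90460870, lies before its GENCODE start, 90460897. Capitals mark matches, on either strand, to CCAAT, to the TATA box (TATAAA) or to a FOXA site (TGTTTAC).
Alb, chr5:90460620-90460869, + strand: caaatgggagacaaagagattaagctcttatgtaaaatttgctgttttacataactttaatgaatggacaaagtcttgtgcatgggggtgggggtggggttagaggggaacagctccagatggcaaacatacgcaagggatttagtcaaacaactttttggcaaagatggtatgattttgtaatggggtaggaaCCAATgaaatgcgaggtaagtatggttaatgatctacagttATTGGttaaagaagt
Gc, chr5:89457899-89458148, - strand: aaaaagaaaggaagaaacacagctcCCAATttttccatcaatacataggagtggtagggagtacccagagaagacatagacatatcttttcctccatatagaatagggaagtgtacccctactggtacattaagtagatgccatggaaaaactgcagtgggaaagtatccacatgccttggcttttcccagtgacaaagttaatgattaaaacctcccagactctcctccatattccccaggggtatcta
Ahsg, chr16:22891765-22892014, + strand: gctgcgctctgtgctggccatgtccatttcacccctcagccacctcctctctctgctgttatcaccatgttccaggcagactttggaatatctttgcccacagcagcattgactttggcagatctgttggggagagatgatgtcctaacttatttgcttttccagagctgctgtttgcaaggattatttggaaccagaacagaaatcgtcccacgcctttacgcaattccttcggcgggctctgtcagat
Fetub, chr16:22919972-22920221, + strand, the second of its 2 starts: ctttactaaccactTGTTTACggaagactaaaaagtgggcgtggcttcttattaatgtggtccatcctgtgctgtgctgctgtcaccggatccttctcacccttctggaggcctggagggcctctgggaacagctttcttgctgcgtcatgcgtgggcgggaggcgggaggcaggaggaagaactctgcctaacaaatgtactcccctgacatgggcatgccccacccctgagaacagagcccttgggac

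CCAAT was found in 6 of the 14 windows, from 5 genes, and in 33.8% of all 32851 windows of the same length. The window of the first Apoa2 start, which is among the 6, lies in annotated exons over all of its 250 bases. Some other windows overlap exons in part, as for 1 of Apoe (173 bases) and 1 of Rbp4 (124 bases). In the Alb window it begins 56 and 15 bases before the start, on opposite strands, and in the Gc window 225 bases before it. TATAAA was found in 4 of the 14 windows (12.4% of all windows) and TGTTTAC in 4 (3.17% of all). At the first Fetub start TATAAA begins 31 bases upstream. In the Ahsg window, which lies inside the gene's GENCODE span, none of the searched sequences occurs. Neither the palindromic cyclic AMP response element TGACGTCA (1.55% of windows) nor the HNF4 site CAAAGTCCA (0.384%) occurs in any of the 14 windows. A match here is a description of letters, not of binding.

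Library totals were 12.144 to 18.755 M counts, and the fewest counts of any of the 10 genes in a library were 3899, for Fetub. Counting error was therefore at most 1.6% of a value, well below the spread between libraries. Levels are counts per M (CPM) on totals scaled by TMM, given as mean ± SD (n = 4), and fold changes are on the log2 scale ± SE. Adjusted p-values are from edgeR's quasi-likelihood test, adjusted by Benjamini-Hochberg over the 12910 genes tested, with 0.05 as the threshold. Semaglutide 11 and Dicretin 14 stood apart from their groups. In Semaglutide 11 the shortest 25% of genes (exons of up to 2674 bases) lay 0.785 log2 units higher against the longest 25% (6728 bases or more) than in an average library, and its mates lay between -0.172 and 0.130. In Dicretin 14 the same measure was -0.497, against 0.029 to 0.385 in its mates. The measure also differed between groups, with a mean of -0.213 in calorie restriction and 0.007 in saline (-0.114 to 0.086). Calorie restricted 7, 52 and 79 lay at -0.281, -0.274 and -0.292, below all saline libraries, and 8 at -0.005. In comparisons of calorie restriction this trend and a change of the short members cannot be told apart without its removal. All 10 genes are shorter than the median tested gene (4334 bases). Semaglutide 11 was the highest of its group for 8 of them and Dicretin 14 the lowest of its group for 7. Values without these libraries, or with the length trend removed, are given below where they change a call.

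The 10 genes passed the low-count filter, and together they took 16.6% ± 0.921 of all gene counts in saline, 18.2% ± 0.901 in calorie restriction, 17.7% ± 0.542 in Semaglutide and 12.9% ± 0.599 in Dicretin. The highest Dicretin library (13.5%) lay below the lowest library of any other group (15.7%). Without Alb the mean sums were 8.16%, 7.26%, 8.55% and 6.94%, in the same order of groups. The Dicretin libraries then overlapped the calorie restricted ones, so the separation from that group rested on Alb. Alb ranked first and Apoe second among all genes in each of the 16 libraries, whereas Fetub ranked between 180 and 608.5. Per kilobase of exon, mean saline levels ran from Alb at 34862 CPM through Apoa2 (18338), Apoe (13838), Apoa1 (8005.4), Ttr (7223.9), Gc (4075.4), Rbp4 (3162.3), Ahsg (2659.5) and Apoh (1775.6) to Fetub (282.8). The saline ranges of Apoa1 and Ttr overlapped, as did those of Rbp4 and Ahsg, and all other neighbours in that order were separate. By its mean, Ahsg was eighth in saline, seventh in calorie restriction and sixth in Semaglutide and Dicretin. Its range overlapped that of Rbp4 in saline and those of Gc and Rbp4 in the other groups, so these places are not resolved. In Dicretin the order from Ttr to Rbp4 was not resolved, because each gene's range overlapped that of its neighbour.

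**Figure D1:**
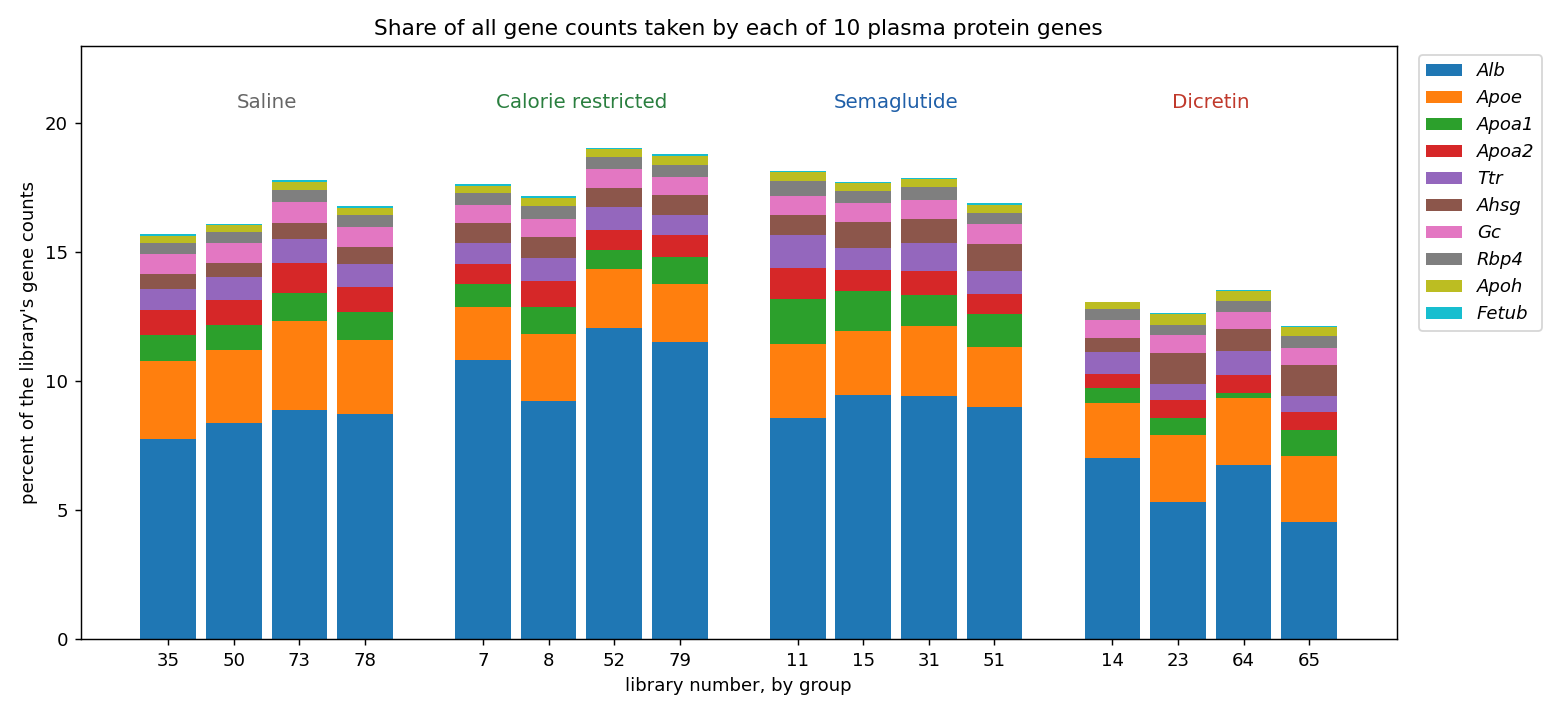
Percent of each library's gene counts (vertical axis) taken by each of the 10 genes, stacked, for the 16 libraries by number and group (horizontal axis). The 4 Dicretin bars end between 12.1% and 13.5%, below all others, and the lowest segment, Alb, is the largest in every bar.

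Against saline, 1 of the 10 genes was higher and 3 were lower in Dicretin. Over all tested genes 36.7% passed in this comparison (17.5% higher and 19.2% lower), so the 4 called members are near the background share. The median log2 fold change was -0.205 over the 10 genes and -0.0054 over all genes. Unadjusted p was under 0.05 for 5 members, the fifth being Apoa1, and for 46.1% of all genes. Against Semaglutide, Dicretin had 0 higher and 5 lower, where 32.0% of genes passed, 14.8% higher and 17.1% lower, and the median of the members was -0.385. Against calorie restriction it had 0 higher and 2 lower, below the 31.3% of all genes that passed (15.1% and 16.2%), with a median of -0.113. These 3 comparisons share the Dicretin libraries.

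No member passed edgeR's test in the comparisons without Dicretin. Between Semaglutide and saline 4.18% of all genes passed (1.56% higher, 2.62% lower) and 0 members did, while 1 member (Ahsg) had an unadjusted p under 0.05. DESeq2 called that gene higher and limma-voom called 0. Between calorie restriction and saline 7.53% of genes passed (3.42% higher, 4.11% lower) and 0 members did, while 2 members (Alb, Apoe) had an unadjusted p under 0.05. There DESeq2 called 1 higher, Alb, and limma-voom 0. Between Semaglutide and calorie restriction 6.12% of genes passed (3.05% higher, 3.07% lower) and 0 members did, while 2 members (Ttr, Apoa1) had an unadjusted p under 0.05, and DESeq2 and limma-voom called 0. The medians over the 10 genes were 0.210, 0.051 and 0.166 in these 3 comparisons. Over all genes an unadjusted p was under 0.05 for 18.7%, 23.2% and 23.2%, in the same order. DESeq2 called 982, 1528 and 1292 of the 12910 genes there, and limma-voom 550, 1078 and 779.

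**Figure D2:**
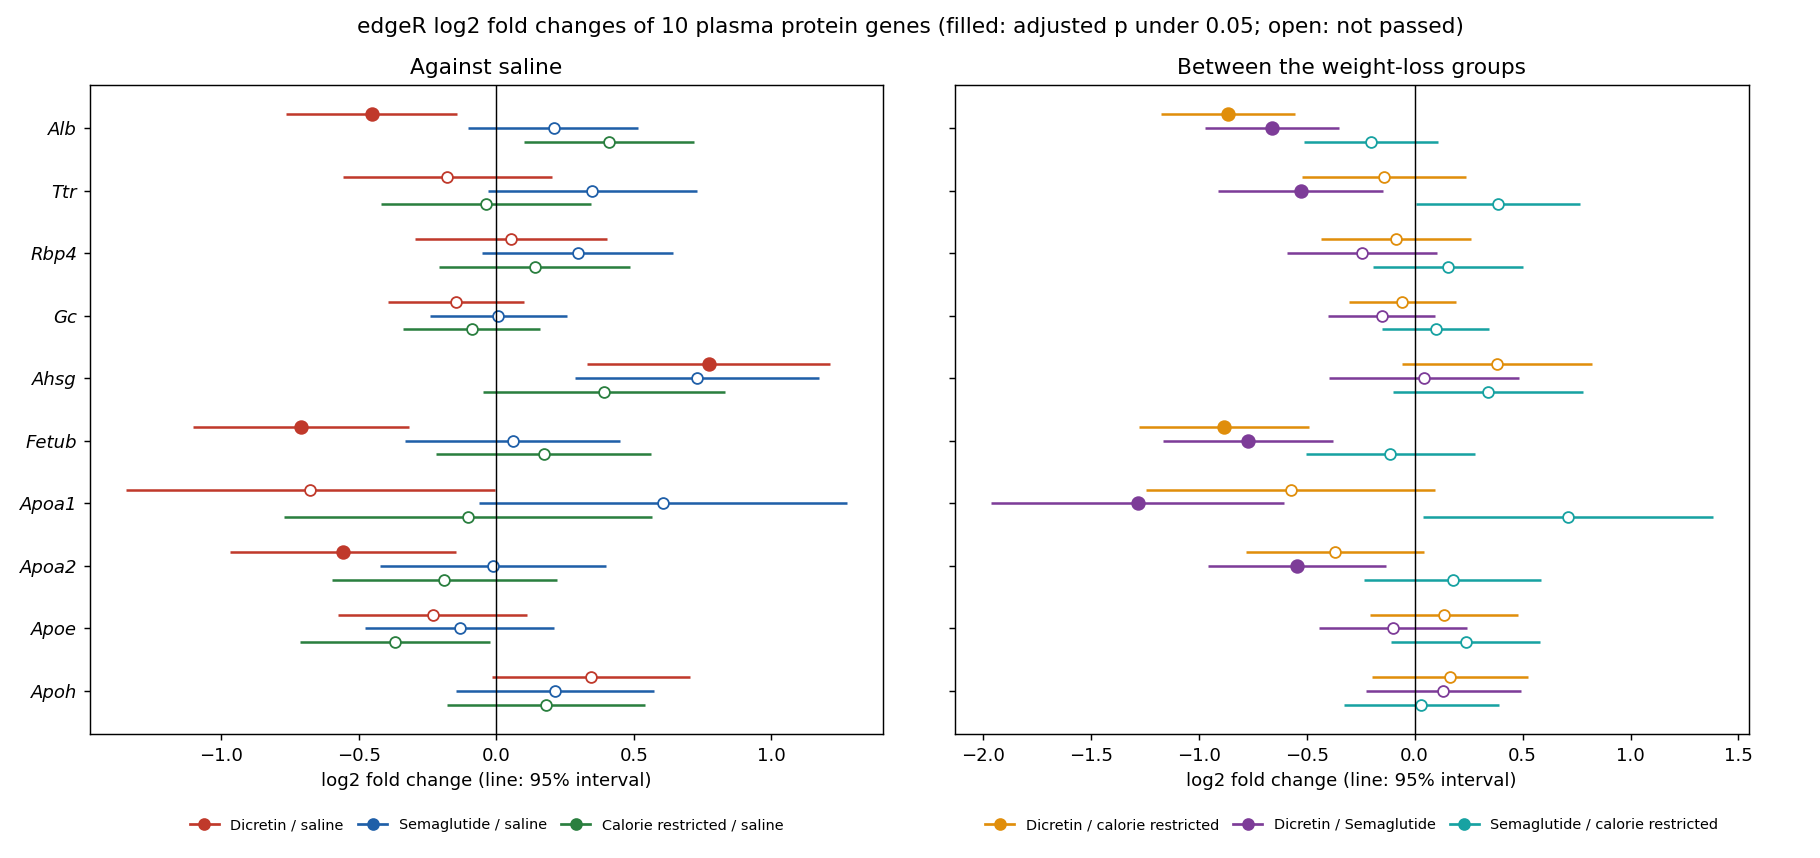
Fold changes of the 10 genes on the log2 scale (horizontal axes) with 95% intervals, against saline on the left and between the 3 weight-loss groups on the right, filled where the adjusted p was under 0.05. Alb, Fetub and Apoa2 are filled to the left of 0 and Ahsg to the right for Dicretin against saline, and the calls between groups all involve Dicretin and lie to the left.

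Albumin was lowest in Dicretin livers and highest under calorie restriction. Alb (ENSMUSG00000029368) lies on chromosome 5 at 90460897 to 90476602 (GRCm38, + strand, as all positions below in GENCODE M21). Saline libraries 35, 50, 73 and 78 held 71383, 79602, 87895 and 87711 CPM. Calorie restricted libraries 7, 8, 52 and 79 held 104003, 95368, 118296 and 116289 CPM. All 4 of the latter exceeded every saline library, and the calorie restricted mean was the highest of the 4 groups. Semaglutide 11, 15, 31 and 51 held 100898, 96144, 93547 and 86566 CPM, and Dicretin 14, 23, 64 and 65 held 62613, 55569, 72006 and 48276 CPM. The Dicretin range touched the saline range at a single point, Dicretin 64 above saline 35, and was separate from both other groups.

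Alb fell by 0.45 ± 0.15 in Dicretin against saline (mean 59616 ± 10124 against 81648 ± 7860 CPM, adjusted p = 0.0222). Against calorie restriction the log2 fold change was -0.86 ± 0.15 (adjusted p = 0.000261) and against Semaglutide -0.66 ± 0.15 (adjusted p = 0.0022), and both were called in every alternative run. The call against saline was lost without Dicretin 23 (adjusted p = 0.0691), Dicretin 65 (0.0773), saline 73 (0.0774) or saline 78 (0.0564), without a low-count filter (0.0931), with the length trend removed (0.0564) and with only the 2 groups in the fit (0.0787). Calorie restriction exceeded saline by 0.41 ± 0.15, which did not pass (adjusted p = 0.0978) but passed with DESeq2 (0.0259), with the length trend removed (0.0195) and with only the 2 groups in the fit (0.0237). In bulk liver, fewer hepatocytes and less RNA per hepatocyte cannot be told apart.

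Gc (ENSMUSG00000035540, chromosome 5, 89417522 to 89457898, - strand) was the steadiest of the 10. Saline libraries held 7339, 7123, 7898 and 7716 CPM, in the order of their numbers as above, and Dicretin libraries 6204, 7138, 6943 and 6888 CPM. The groups overlapped by 1 library each, Dicretin 23 and saline 50. Calorie restriction held 6555 to 7345 CPM and Semaglutide 7251 to 8269 CPM. The largest difference between group means was 1.11-fold, and the coefficient of variation within groups was 4.68% to 6.33%. No comparison passed. The difference of Dicretin from saline was -0.15 (95% interval -0.40 to 0.10), and that from Semaglutide -0.15 (-0.40 to 0.10). As a ratio of counts per kilobase within a library, which needs no scaling between libraries, Alb over Gc was 8.55 ± 0.596 in saline, 12.1 ± 1.19 in calorie restriction, 9.84 ± 0.480 in Semaglutide and 6.94 ± 1.32 in Dicretin. The ranges of saline (7.66 to 8.96) and Dicretin (5.52 to 8.17) overlapped, and calorie restriction (10.3 to 12.9) lay above saline.

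**Figure D3:**
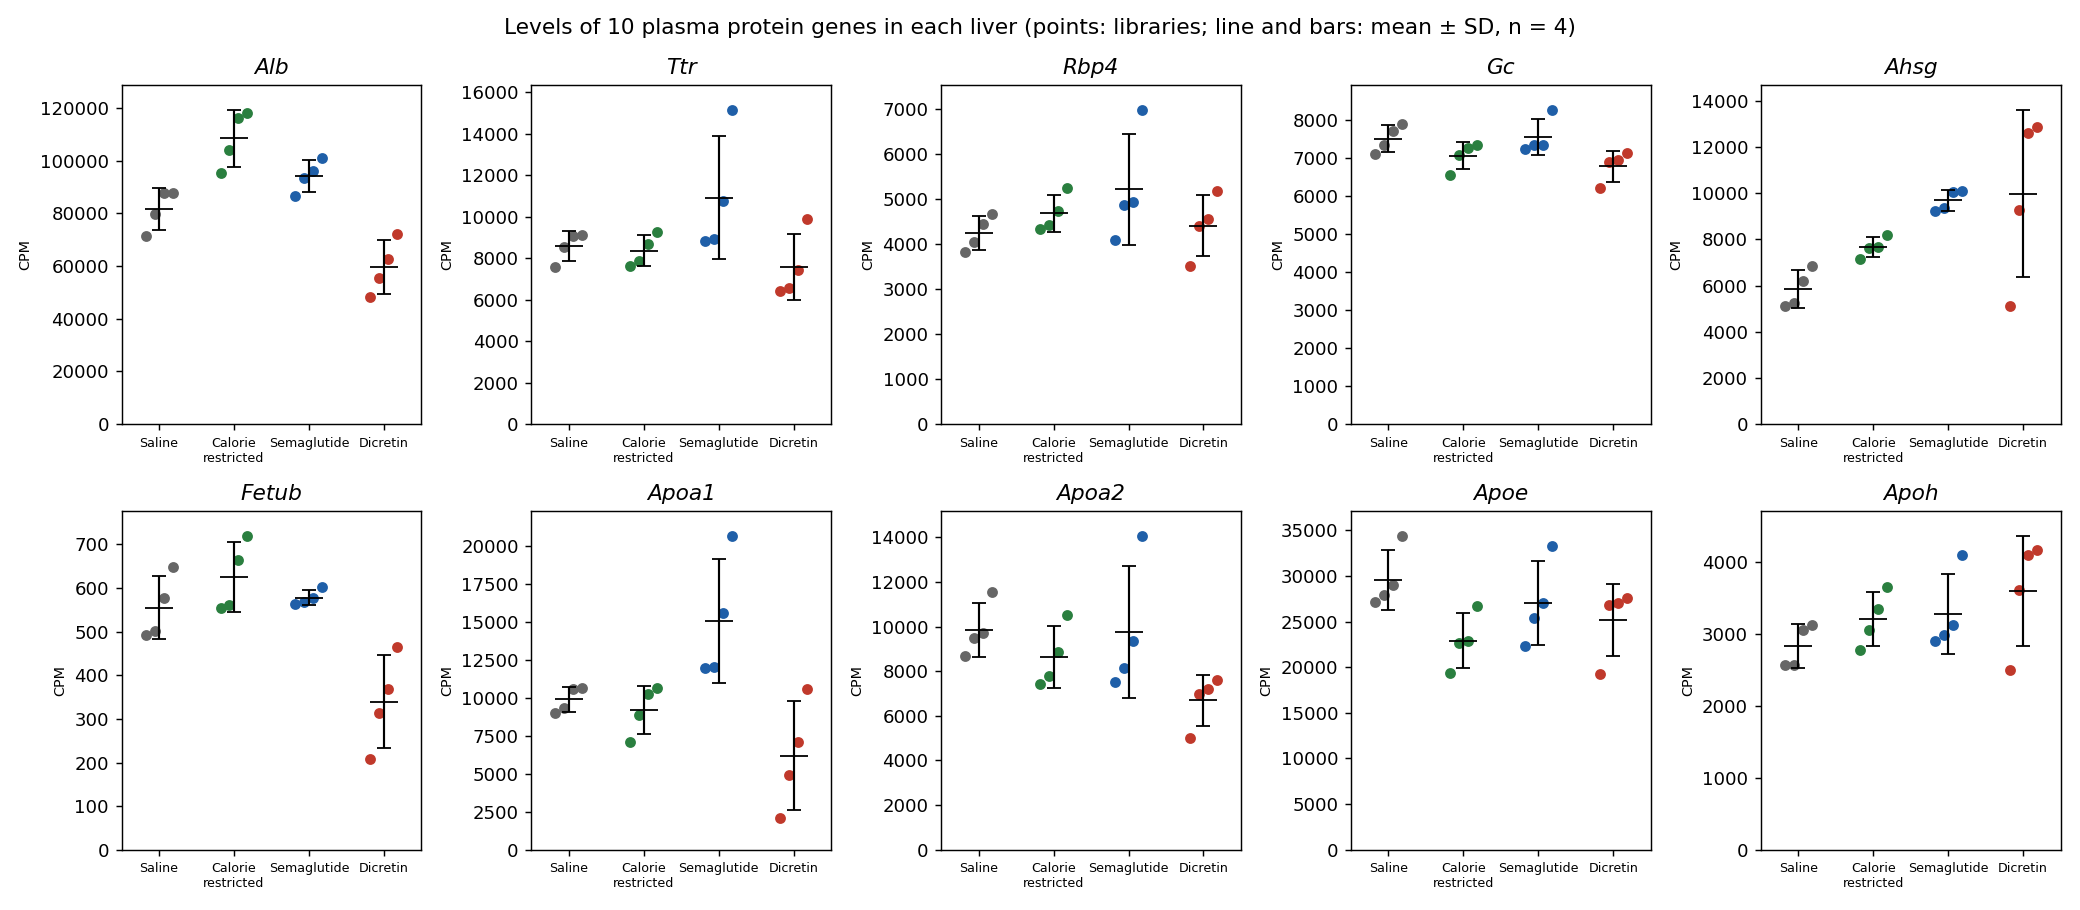
Levels in CPM (vertical axes, from 0) of each gene in each library, by group (horizontal axes), with mean and SD (n = 4). Gc is nearly level over the groups, Apoa1 spreads from 2108 to 10605 CPM within Dicretin, and 1 high Semaglutide point, library 11, recurs in Ttr, Rbp4, Apoa1, Apoa2 and Apoh.

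Transthyretin differed between the drugs but not detectably from saline. Ttr (ENSMUSG00000061808, chromosome 18) held 8829 to 15134 CPM in Semaglutide, with library 11 highest and library 31 next at 10765. The Dicretin libraries 14, 23, 64 and 65 held 7406, 6564, 9891 and 6429 CPM, so that the groups overlapped through Dicretin 64. Ttr was lower in Dicretin than in Semaglutide by a log2 fold change of -0.53 ± 0.18 (adjusted p = 0.0334). Without Semaglutide 11 the difference was -0.33 (0.131), and the call was also lost without Semaglutide 31 (0.0636), Dicretin 14 (0.0556), 23 (0.0977) or 65 (0.0905). It was -0.301 with the length trend removed (0.116) and -0.317 without Semaglutide 11 and Dicretin 14 (0.129), and it was lost as well without a low-count filter (0.062) and with only the 2 groups in the fit (0.132). In saline the level was 8568 ± 724 CPM and in calorie restriction 8347 ± 752 CPM, a difference of -0.04 (95% interval -0.42 to 0.34).

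Rbp4 (ENSMUSG00000024990, chromosome 19, 38116629 to 38125281, - strand), the partner of transthyretin, passed in no comparison. Saline libraries held 3827 to 4673 CPM, calorie restriction 4338 to 5239, Semaglutide 4090 to 6970 and Dicretin 3517 to 5162 CPM. The 4 groups overlapped, and the highest value was Semaglutide 11. The difference of Dicretin from saline was 0.05 (95% interval -0.30 to 0.40). Calorie restriction differed from saline by 0.14 ± 0.17 (adjusted p = 0.662), and with the length trend removed Rbp4 passed as higher there (0.359, 0.0411). Ttr over Rbp4 per kilobase was 2.29 ± 0.0794 in saline, 2.02 ± 0.170 in calorie restriction, 2.37 ± 0.212 in Semaglutide and 1.99 ± 0.517 in Dicretin. The Dicretin libraries split into 1.41 and 1.69 against 2.38 and 2.46, with the saline range (2.21 to 2.39) reaching the upper pair.

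Genes that handle retinol and vitamin D, the cargo of Rbp4 and Gc, were read from a list of 12, of which 11 were tested (Vdr was too low). In Dicretin against saline 1 was higher and 6 were lower, where 17.5% of all genes were higher and 19.2% lower, with a median of -0.825 against -0.0054 over all genes. Aldh1a1, which oxidises retinal to retinoic acid, fell by 1.90 ± 0.18 (adjusted p = 3.4e-07, from 2267 ± 213 to 607 ± 125 CPM). The carboxylesterase Ces1d, a candidate retinyl ester hydrolase, fell by 2.34 ± 0.25 (adjusted p = 9.6e-07). Lower as well were, among others, Ces1f, the retinol dehydrogenase Rdh16 and Cyp27a1, a sterol hydroxylase that can act on vitamin D, while the receptor-like Stra6l rose by 0.57 ± 0.17. In Semaglutide against saline 2 were lower, Aldh1a1 (-0.93 ± 0.18, adjusted p = 0.0052) and Rdh16, where 2.62% of all genes were lower. In calorie restriction against saline Ces1d alone was called, higher by 0.84 ± 0.24 (adjusted p = 0.035), where 3.42% of all genes were higher. The plasma carriers Rbp4 and Gc themselves passed in none of these comparisons, apart from Rbp4 under calorie restriction with the length trend removed.

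The fetuin genes lie in tandem on chromosome 16 and were called in opposite directions. Ahsg (ENSMUSG00000022868, 22891277 to 22899449, + strand), which encodes fetuin-A, held 5222, 5130, 6180 and 6839 CPM in saline 35, 50, 73 and 78. Dicretin 14 held 5134 CPM, inside the saline range, and Dicretin 23, 64 and 65 held 12609, 9288 and 12886 CPM, above all saline libraries. Ahsg rose in Dicretin by 0.77 ± 0.21 (9979 ± 3620 against 5843 ± 816 CPM, adjusted p = 0.00793), and the call held in every alternative run. A predicted gene, Gm30505, overlaps it on the other strand, and the strand setting of the counting is not given in the sources used here.

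In Semaglutide 11, 15, 31 and 51 Ahsg stood at 9234, 10115, 9375 and 10032 CPM. Calorie restricted 7, 8, 52 and 79 had 7644, 8183, 7156 and 7666 CPM. Every Semaglutide library lay above every calorie restricted one, and every calorie restricted one above every saline one. The log2 difference of Semaglutide from saline was 0.73 ± 0.21 (adjusted p = 0.0578) and that of calorie restriction 0.39 ± 0.21 (0.277). The first passed with DESeq2 (0.0146), without a low-count filter (0.0448), with the length trend removed (0.0255), without Semaglutide 11 and Dicretin 14 (0.00314) and with only the 2 groups in the fit (0.0074). The second passed with only the 2 groups in the fit (0.0248). Dicretin and Semaglutide differed by 0.04 (95% interval -0.40 to 0.48). Against calorie restriction Dicretin differed by 0.38 ± 0.21 (adjusted p = 0.18) and, without Dicretin 14, was higher by 0.60 (adjusted p = 0.00413).

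Fetub (ENSMUSG00000022871, 22918334 to 22939778, + strand), which encodes the protease inhibitor fetuin-B, was the least abundant of the 10. Saline libraries held 502, 493, 648 and 576 CPM and calorie restricted libraries 555, 720, 562 and 664 CPM. Semaglutide libraries lay close together at 563, 602, 577 and 569 CPM. Dicretin 14, 23, 64 and 65 held 209, 464, 313 and 369 CPM, all below every library of the other groups. Fetub fell by 0.71 ± 0.19 in Dicretin against saline (adjusted p = 0.00619). The log2 fold change was -0.88 ± 0.19 against calorie restriction (adjusted p = 0.00164) and -0.77 ± 0.19 against Semaglutide (adjusted p = 0.00416). All 3 calls held in every alternative run. Semaglutide differed from saline by 0.06 (95% interval -0.33 to 0.45).

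The ratio of Ahsg to Fetub, per kilobase and within a library, was 9.43 ± 0.867 in saline (8.51 to 10.6) and 11.0 ± 1.006 under calorie restriction (10.2 to 12.3). It was 15.0 ± 0.557 in Semaglutide (14.5 to 15.7) and 26.0 ± 3.92 in Dicretin (22.0 to 31.2). Saline and calorie restriction overlapped, and Semaglutide and Dicretin were each separate from every other group. Dicretin 14, low for both genes, had the lowest ratio of its group and still exceeded the highest Semaglutide library. These ratios are descriptions without a test.

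**Figure D4:**
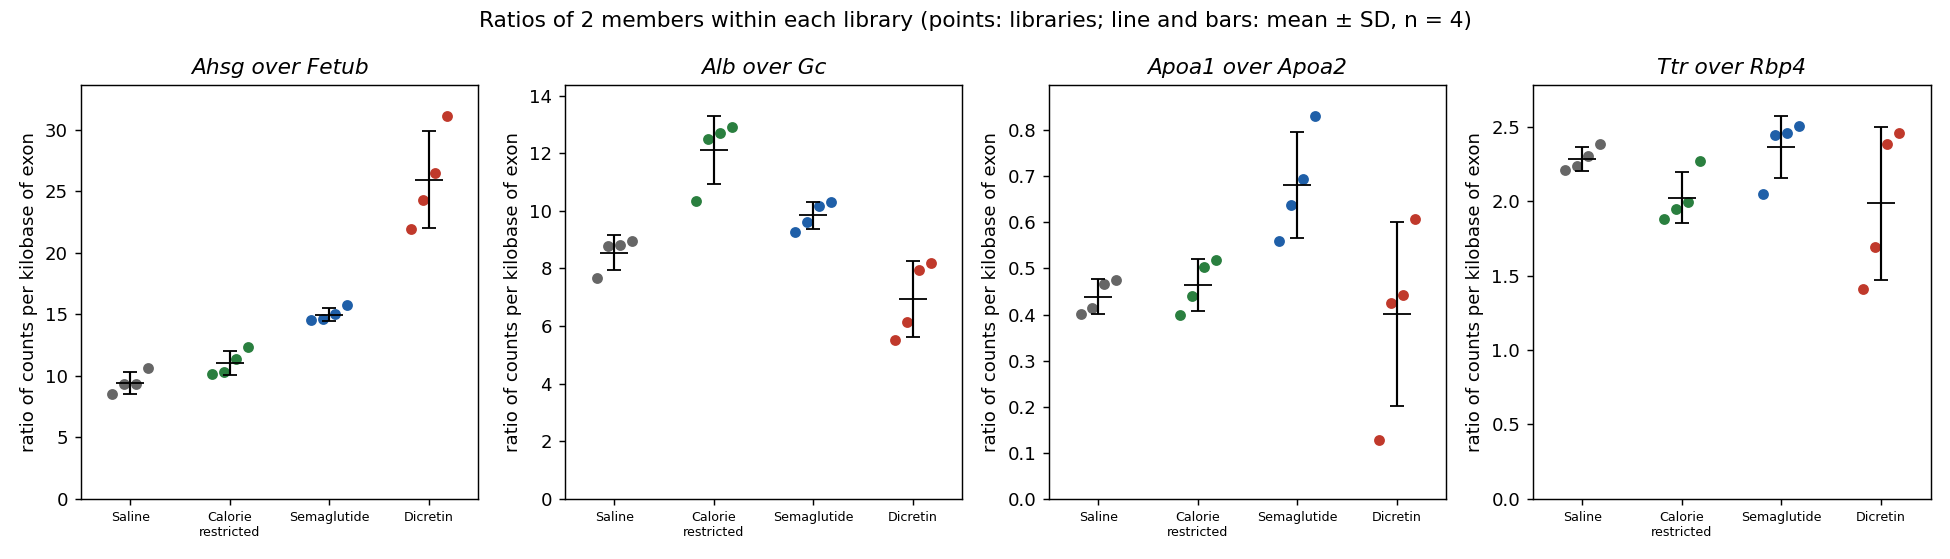
Ratios of counts per kilobase of exon (vertical axes, from 0) between paired genes in each library, by group (horizontal axes), with mean and SD (n = 4). For Ahsg over Fetub the Dicretin points lie at 22.0 to 31.2 and the saline points at 8.51 to 10.6, and for Apoa1 over Apoa2 the Dicretin points spread from 0.127 to 0.607.

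Apolipoprotein A-I had the widest range of the 10 genes over the 16 libraries, 9.8-fold from lowest to highest. Within groups this did not hold throughout. Its coefficient of variation was 8.48% in saline, and 27.2% in Semaglutide, where that of Apoa2 was 30.4%. Apoa1 (ENSMUSG00000032083, chromosome 9, 46228580 to 46230466, + strand) held 9323, 9028, 10629 and 10599 CPM in saline 35, 50, 73 and 78 and 7125 to 10646 CPM in calorie restriction. Semaglutide 11, 15, 31 and 51 held 20670, 15589, 12022 and 11989 CPM, all above every saline and calorie restricted library. Dicretin 14, 23, 64 and 65 held 4931, 7116, 2108 and 10605 CPM, a coefficient of variation of 57.9%, and Dicretin 65 reached the saline range. Apoa1 was lower in Dicretin than in Semaglutide, by a log2 fold change of -1.28 ± 0.32 (6190 ± 3587 against 15067 ± 4099 CPM, adjusted p = 0.00528). Without Semaglutide 11 and Dicretin 14 together it was -0.995 (adjusted p = 0.0755).

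Against saline, Apoa1 in Dicretin differed by -0.68 ± 0.32, which did not pass (adjusted p = 0.106). It passed with limma-voom (0.043), and without Dicretin 65 it was -1.07 (adjusted p = 0.011). That library also set the comparison with calorie restriction, at -0.57 ± 0.32 with it (adjusted p = 0.184) and -0.965 without it (0.0243). Semaglutide exceeded saline by 0.61 ± 0.32 (adjusted p = 0.317), although the groups did not overlap.

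Apoa2 (ENSMUSG00000005681, chromosome 1, 171225054 to 171226379, + strand), the second protein of HDL, was lower in Dicretin than in saline with no overlap. Saline libraries held 8673, 9486, 11527 and 9704 CPM and Dicretin libraries 5028, 6971, 7191 and 7587 CPM. The highest Dicretin library lay below the lowest saline one. Apoa2 fell by 0.56 ± 0.20 (adjusted p = 0.0328). The call was lost without Dicretin 14 (0.0987), Dicretin 23 (0.0603), saline 50 (0.0612), saline 73 (0.116) or saline 78 (0.0539), and without a low-count filter (0.0575). Semaglutide held 7502 to 14066 CPM, with library 11 highest, and calorie restriction 7424 to 10519 CPM. The difference of Dicretin from Semaglutide was -0.54 ± 0.20 (adjusted p = 0.041), and without Semaglutide 11 it was -0.315 (0.171). That call was also lost without Semaglutide 31 (0.0667) or Dicretin 14 (0.11), 23 (0.0672) or 64 (0.0514). It was -0.254 with the length trend removed (0.0828) and -0.198 without Semaglutide 11 and Dicretin 14 (0.311), and it was lost as well without a low-count filter (0.0618) and with only the 2 groups in the fit (0.127). Against calorie restriction Dicretin differed by -0.37 ± 0.20 (adjusted p = 0.164), and Apoa2 passed as lower on unscaled library totals (-0.399, 0.0474) and with the length trend removed (-0.496, 0.00199). Apoa1 over Apoa2 per kilobase was 0.439 ± 0.0373 in saline, 0.465 ± 0.0561 in calorie restriction, 0.681 ± 0.115 in Semaglutide and 0.401 ± 0.200 in Dicretin. Each Semaglutide library exceeded every saline and calorie restricted one in this ratio, and Dicretin 64 stood lowest of all 16 libraries at 0.127.

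Apoe (ENSMUSG00000002985, chromosome 7, 19696109 to 19699188, - strand) passed in no comparison. Saline libraries held 27888, 27087, 34389 and 28978 CPM and calorie restricted libraries 19390, 26725, 22665 and 22879 CPM, with no overlap. The difference was -0.37 ± 0.16 (adjusted p = 0.183), and it passed on unscaled library totals (-0.41, 0.0412). Dicretin 14 held 19246 CPM and its mates 26846 to 27577 CPM, and Semaglutide ranged from 22302 to 33252 CPM. Macrophages also make apolipoprotein E. The summed level of 12 Kupffer cell and macrophage markers was 265 to 430 CPM in the saline libraries and 88.3 to 330 CPM under calorie restriction. With Semaglutide it was 134 to 494 CPM and with Dicretin 249 to 704 CPM. Of those 12 markers, 1 was lower in calorie restriction than in saline, where 4.11% of all genes were lower. In Dicretin against calorie restriction 8 were higher, where 15.1% of all genes were higher. Against saline 0 were called in Dicretin, where 36.7% of all genes passed, and against Semaglutide 2 were higher (14.8% of all genes). Semaglutide had 0 called against saline or calorie restriction, where 4.18% and 6.12% of all genes passed. The part of these markers' cells in the Apoe values was not tested.

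Apoh (ENSMUSG00000000049, chromosome 11, 108343354 to 108414396, + strand), the phospholipid-binding member, held 2572, 2563, 3128 and 3059 CPM in saline and 2504, 4100, 4170 and 3608 CPM in Dicretin 14, 23, 64 and 65. Dicretin 14 was below all saline libraries and its 3 mates were above them. The difference was 0.35 ± 0.17 (adjusted p = 0.124), and without Dicretin 14 Apoh was higher by 0.50 (adjusted p = 0.0157). With the length trend removed it was 0.445 (0.011). Calorie restriction held 2771 to 3651 CPM and Semaglutide 2907 to 4099 CPM. Against Semaglutide, Dicretin differed by 0.13 ± 0.17 (adjusted p = 0.593). Without Semaglutide 11 and Dicretin 14 that difference was 0.40 (0.0249). The gene span overlaps Prkca on the other strand and Gm11656 on its own, and with the strand setting unknown its level is uncertain.

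Genes that lie beside the members were read next, 12 in all. In Dicretin against saline 3 were higher and 0 lower, with a median of 0.016, where 17.5% of all genes were higher and 19.2% lower. In the Apoa1 cluster, Apoa4 (apolipoprotein A-IV, made with lipoprotein secretion in liver and gut) differed from its neighbours. It was 967 ± 482 CPM in saline, 225 ± 45.3 in calorie restriction, 211 ± 45.0 in Semaglutide and 2292 ± 981 in Dicretin. Apoa4 rose in Dicretin against saline by 1.25 ± 0.33 (adjusted p = 0.0066), and fell in both other groups, with log2 fold changes of -2.20 ± 0.34 in Semaglutide (adjusted p = 0.001) and -2.10 ± 0.34 in calorie restriction (adjusted p = 0.00098). Saline itself ranged from 507 to 1549 CPM and overlapped Dicretin (1158 to 3252) but neither other group. Apoc3, an inhibitor of lipoprotein lipase beside Apoa1, was called only against Semaglutide, lower in Dicretin by a log2 fold change of -0.74 ± 0.27 (adjusted p = 0.041). Apoa5 was called in none.

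Beside Alb, afamin (Afm), a vitamin E carrier of the albumin family, was 227 ± 27.1 CPM in saline, 300 ± 13.5 in calorie restriction, 341 ± 36.5 in Semaglutide and 176 ± 35.9 in Dicretin. Afm rose in Semaglutide against saline by 0.59 ± 0.15 (adjusted p = 0.03). It was lower in Dicretin than in Semaglutide (-0.96 ± 0.15, adjusted p = 8.5e-05) and than in calorie restriction (-0.77 ± 0.15, adjusted p = 0.00074). Against saline Dicretin differed by -0.37 ± 0.15 (adjusted p = 0.06). Beyond the fetuins, the kininogen gene Kng2 rose in Dicretin by 0.56 ± 0.14 (adjusted p = 0.0052), and Hrg and Kng1 were called in none. In the Apoe cluster Apoc1, Apoc2 and Apoc4 were called in none, and Tomm40, a mitochondrial import gene, rose in Dicretin by 0.43 ± 0.17 (adjusted p = 0.0499).

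**Figure D5:**
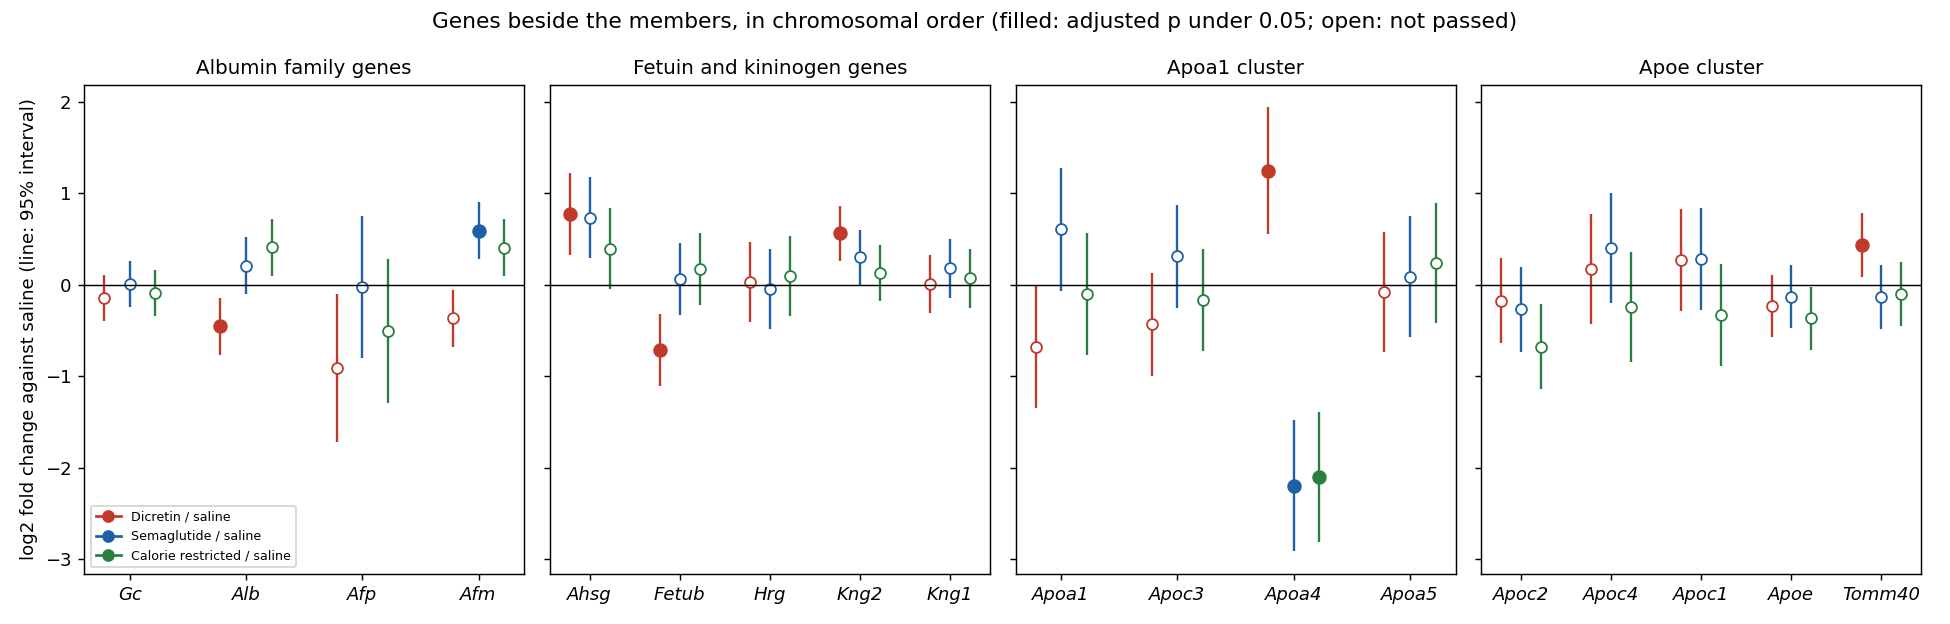
Fold changes against saline on the log2 scale (vertical axis) with 95% intervals for the members and their neighbours in chromosomal order (horizontal axes), filled where the adjusted p was under 0.05. Apoa4 stands at 1.25 for Dicretin and near -2 for both other groups, while Apoa1 beside it has no filled point.

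Of 16 other plasma carriers of hepatocytes, 15 were tested, and in Dicretin against saline 4 were higher and 3 lower (median -0.356), where 36.7% of all genes passed. The heme carrier hemopexin (Hpx) rose by 1.33 ± 0.25 (9553 ± 3876 against 3804 ± 439 CPM, adjusted p = 0.00048) and the hemoglobin carrier haptoglobin (Hp) rose by 0.97 ± 0.27 (adjusted p = 0.0082). The thyroxine carrier Serpina7 fell by 1.97 ± 0.30 (25.8 ± 14.6 against 102 ± 9.77 CPM, adjusted p = 6.2e-05). Ttr, which also carries thyroid hormone, differed by -0.18 ± 0.18 in the same comparison (adjusted p = 0.468). Apom, the sphingosine-1-phosphate carrier of HDL, rose by 1.55 ± 0.23 in Dicretin, 1.62 ± 0.23 in Semaglutide and 0.90 ± 0.22 in calorie restriction (adjusted p = 3.8e-05, 0.00055 and 0.019).

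Among 16 genes of HDL formation and remodelling, which include Apom and Apoa4, 2 were higher and 2 lower in Dicretin against saline (median -0.075), where 36.7% of all genes passed. The lower ones were Saa4, an HDL-bound serum amyloid A, at -2.17 ± 0.18 (adjusted p = 5.9e-08), and the phospholipid transfer protein Pltp at -0.92 ± 0.28 (adjusted p = 0.014). In Semaglutide against saline 2 were higher and 2 lower, where 1.56% of all genes were higher and 2.62% lower. In calorie restriction against saline 1 was higher and 2 were lower, where 3.42% of all genes were higher and 4.11% lower.

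Transcription factors known to act on plasma protein genes gave 3 higher and 5 lower of 18 tested in Dicretin against saline (median -0.317), where 36.7% of all genes passed. Hnf4a rose by 0.82 ± 0.19 (784 ± 68.5 against 446 ± 39.9 CPM, adjusted p = 0.0027), Foxa3 rose by 1.89 ± 0.16 and Nr5a2 by 0.87 ± 0.18. Dbp, a circadian factor first found at the albumin promoter, fell by 2.05 ± 0.35 (adjusted p = 0.00022), and Cebpd, Nr1h4, Ppara and Creb3l3 were lower as well. Cebpa was not called (-0.34 ± 0.16, adjusted p = 0.10). Dbp was 101 ± 8.67 CPM in saline, 9.87 ± 4.89 in calorie restriction, 135 ± 12.2 in Semaglutide and 24.2 ± 12.5 in Dicretin. The time of tissue collection is not given in the labels used here.

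The hepatocyte label was checked with 12 markers that are not members. All were detected, with summed levels of 28762 to 52061 CPM in Dicretin livers and 29516 to 37305 CPM in saline livers. Semaglutide livers had 35625 to 38331 CPM and calorie restricted livers 33137 to 38303 CPM. In Dicretin against saline 6 of these 12 were higher, among them Tat and Cps1, and 2 lower, Cyp2e1 (-1.81 ± 0.26) and Asgr2 (-0.92 ± 0.16), where 36.7% of all genes passed. Endothelial markers summed to 199 to 356 CPM over all libraries, and 1 of 10 was higher in Dicretin than in saline. Stellate cell markers ranged from 340 to 531 CPM in saline and 318 to 400 in Dicretin, with 3 of 10 lower. Cholangiocyte markers ranged from 63.9 to 90.8 CPM in saline and 29.2 to 50.3 in Dicretin, with 2 of 6 tested lower, and 1 of the 8 listed had no count in saline. Lymphocyte markers stayed between 4.23 and 9.80 CPM, with 0 of 7 tested called in edgeR's test of Dicretin against saline. The part of these cell types in the members' values was not tested.

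For each member the genes with the most similar profile were found among 7121 genes of at least 10 CPM, by the root mean square difference of log2 CPM from the saline mean over 16 libraries. The nearest to Alb was Ola1 at 0.171, to Ahsg the ribosomal gene Rpl28 at 0.212, to Fetub Nelfcd at 0.147, and to Gc Arpc2 at 0.087. Apoa1 had no near gene, its closest being the coagulation gene F13b at 0.407. The nearest other member was in each case farther than some of these candidates, which far outnumber the members. For Alb it was Ttr at 0.316, with 284 candidates nearer, and over the 10 genes 77 to 384 of the 7121 candidates lay nearer than any member. Because the pools differ so much in size, these counts do not tell whether members resemble each other more or less than other genes do. The growth hormone receptor gene Ghr, second nearest to Fetub at 0.165, was -0.845 ± 0.14 in Dicretin against saline (adjusted p = 0.00013). These distances describe the 16 libraries, which share groups and scaling.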

How the data were processed

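Poly(A) messenger RNA of mouse liver was sequenced in 16 libraries, 4 in each of 4 groups. Livers were frozen, extracted with Trizol and made into directional libraries, per the labels' protocols. The deposited values were raw counts per gene, with TopHat2 2.1.1, featureCounts and the mm10 build named per the submitters' processing notes. The annotation release and strand setting are not given in the sources used here. Nothing in the labels says outright that each library is a separate animal, so p-values measure the spread between these samples.

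From the 46078 genes, filterByExpr kept 12910. Counts were scaled by TMM and fitted with edgeR 4.0.16 (R 4.3.3) as 1 robust quasi-likelihood model of 16 libraries with 6 contrasts, and p-values were adjusted by Benjamini-Hochberg within each contrast. Symbols came from GENCODE M21 for 45229 identifiers. CPM are totals-scaled, and profiles used log2 CPM with a prior count of 2. Per-kilobase levels used the union of annotated exons. Totals per library were 12.144 to 18.755 M. The fit was also run on simulated data with known changes. Their spread was smaller than the common spread of these data and they held no length trend, so that run does not measure the error rates here.

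Named genes were the 10 members, all tested neighbours, retinol and vitamin D genes and transcription factors, up to 4 genes with the smallest p (Dicretin against saline) from each other list, and 2 profile neighbours per member. The members and lists were chosen with earlier results of these data known. Some genes that the rule names are not reported here. Each result was recomputed on library totals alone, with upper quartile factors, with size factors of DESeq2 1.42.0, with scaling without the 20 most abundant genes, by the DESeq2 Wald test, by limma-voom (limma 3.58.1), with 1 CPM in 4 libraries as the filter or none, after removal of a loess trend on exon length (span 0.5), with the 2 compared groups alone, with each library left out, and with Semaglutide 11 and Dicretin 14 left out together. No protein sequences were used here.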

Additional observations from a re-analysis of the deposited data

Results flagged for a closer look

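Each member was examined in each group for a library far from its mates, 40 groups in all, of which chance alone marks about 1 in 20. In 2 of them the gap of such a library to its nearest mate exceeded Dixon's critical share of the group's range. Gc in Semaglutide 11 was 8269 CPM (8268.9 before rounding), against 7251 to 7350 CPM in the other 3 libraries, and the gap took 0.902 of the range. Apoe in Dicretin 14 was 19246 CPM, against 26846 to 27577 CPM in the others, and the gap took 0.912 of the range. Neither gene passed edgeR's test in any comparison.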

How the results depend on the processing

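For the 10 genes in 6 comparisons, 1028 of 1130 alternative values had the same direction and side of the threshold. Each value is for 1 gene in 1 comparison under 1 setting. Many come from the same fit, so they are not independent checks. A call was lost in 32 and gained in 22. No paired analysis was possible because the groups share no replicate numbers. Counts of called members in Dicretin against saline were 1 lower without a low-count filter, 2 lower with only the 2 groups or the length trend removed, 4 lower by limma-voom, and 2 higher with the length trend removed or without Semaglutide 11 and Dicretin 14. Leaving out 1 library gave 1 to 2 higher (2 without Dicretin 14) and 1 to 3 lower (1 without Dicretin 23, saline 73 or saline 78). Over all genes, in either direction, the main fit called 4734 of 12910 here. Without a low-count filter 4304 of 23501 were called, and with only the 2 groups 4361 of 12362. With the length trend removed 5465 of 12875 were called, and by limma-voom 4765 of 12910. It was 5537 of 13052 without Semaglutide 11 and Dicretin 14, and 3921 of 13085 to 4822 of 13102 on leaving out 1 library. In Semaglutide against saline 1 was higher by DESeq2's Wald test, without a low-count filter, with the length trend removed, without Semaglutide 11 and Dicretin 14, and with only the 2 groups. Over all genes these settings called, in that order, 982 of 12910, 435 of 23501, 841 of 12875, 655 of 13052 and 612 of 12389. The main fit called 539 of 12910. In calorie restriction against saline 1 was lower on library totals (Apoe), 1 higher by DESeq2's Wald test (Alb), 2 higher with the length trend removed (Alb, Rbp4) and 2 with only the 2 groups (Alb, Ahsg). Over all genes these settings called, in that order, 931 of 12910, 1528 of 12910, 1319 of 12875 and 2569 of 12395. The main fit called 972 of 12910. In Dicretin against calorie restriction 1 was higher without Semaglutide 11 and Dicretin 14, 3 were lower on library totals and with the length trend removed (Apoa2 gained), and leaving out 1 library gave 0 to 1 higher and 2 to 3 lower. Over all genes the first 3 of these settings called 5264 of 13052, 3789 of 12910 and 4429 of 12875. Leaving out 1 library called 3262 of 13134 to 4434 of 13102, and the main fit called 4041 of 12910. In Dicretin against Semaglutide 3 were lower without a low-count filter, with the length trend removed and with only the 2 groups, and 2 lower and 1 higher without Semaglutide 11 and Dicretin 14. Leaving out 1 library gave 3 to 5 lower (3 without Semaglutide 11, Semaglutide 31, Dicretin 14 or Dicretin 23). Over all genes 3596 of 23501 were called without a low-count filter and 4552 of 12875 with the length trend removed. It was 2658 of 12188 with only the 2 groups and 4553 of 13052 without Semaglutide 11 and Dicretin 14. Leaving out 1 library called 3580 of 13158 to 4240 of 13139, and the main fit called 4128 of 12910. Leaving Alb out changed the summed shares to 8.16%, 7.26%, 8.55% and 6.94%, by construction. The cause of the other changes was not tested.

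The sign changed in 48 alternatives, 0 of them with an adjusted p under 0.05 on either side. With the length trend removed, calorie restriction against saline gave 0.126 for Apoa1, 0.123 for Apoa2, 0.076 for Gc and 0.203 for Ttr; Semaglutide against calorie restriction -0.242 for Apoa2, -0.198 for Apoh, -0.086 for Gc and -0.114 for Rbp4; Gc in Semaglutide against saline -0.010; and Apoe in Dicretin against Semaglutide 0.002. On library totals Apoh in Semaglutide against calorie restriction was -0.029, Fetub and Gc in Semaglutide against saline -0.029 and -0.090, and Rbp4 in Dicretin against saline -0.020. Upper quartile factors gave -0.016 for Gc in Semaglutide and -0.000 for Rbp4 in Dicretin, both against saline. Apoa2 in Semaglutide against saline was 0.000 by DESeq2's test and size factors, 0.004 without the 20 most abundant genes and 0.006 without a low-count filter. Limma-voom gave -0.042 for Ahsg in Dicretin against Semaglutide. Without Semaglutide 11 and Dicretin 14, Semaglutide against calorie restriction was -0.054 for Apoa2, -0.094 for Apoh and -0.017 for Rbp4, Gc in Semaglutide against saline was -0.040, Rbp4 in Dicretin was 0.008 against calorie restriction and 0.025 against Semaglutide, and Apoe there 0.127. Leaving out 1 library reversed 20 values, within -0.104 to 0.104. Over these fits the ranges against saline were -0.030 to 0.166 for Rbp4 in Dicretin, -0.038 to 0.040 for Gc and -0.241 to 0.104 for Apoa2 in Semaglutide, and -0.089 to 0.017 for Ttr and -0.177 to 0.018 for Apoa1 in calorie restriction. Against calorie restriction they were -0.171 to 0.009 for Rbp4 in Dicretin and, in Semaglutide, -0.016 to 0.249 for Rbp4, -0.053 to 0.284 for Apoa2 and -0.094 to 0.099 for Apoh. Dicretin against Semaglutide ranged from -0.104 to 0.264 for Ahsg and from -0.168 to 0.015 for Apoe.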
